A study of Homo sapiens with 12 samples.

Results

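The comparison described here sets A549 cells that received a plasmid for full-length SEMA5A (Full) against A549 cells that received a control plasmid (Empty). Its members were all probes with a detection p under 0.05 on all 3 Full arrays or on all 3 Empty arrays, which 17655 of the 47323 probes on the array met. Of these, 16643 were detected on all 3 Full arrays and 16936 on all 3 Empty arrays, with 719 reaching that level in Full only and 1012 in Empty only. With 1 probe kept per gene symbol, the members came to 14522 of the 15338 features tested in the series. A feature here is a gene with a symbol (10479 of the members) or a probe without one (4043).

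A549 is a widely used human tumour cell line of the lung. Expression was measured on 12 single-colour Illumina bead arrays, with RNA taken 24 h after transfection of 1 of 4 plasmids, 3 arrays each. Besides full-length SEMA5A and the control plasmid (labelled SEMA5A_Empty), the plasmids carried the extracellular domain (ECD) or the intracellular domain (ICD). All groups, Empty included, were exposed to plasmid DNA and to the transfection reagent jetPRIME. The labels do not say whether the arrays of a group came from separate transfections, and the spread behind each p-value may be only technical. The number of arrays limits the precision. In bulk RNA from transfected cells, a change in a few cells and a smaller change in every cell cannot be told apart.

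SEMA5A is a semaphorin, one of a family of guidance proteins that act on the cytoskeleton and on adhesion through plexin receptors, and unlike most of its family it carries thrombospondin repeats next to a membrane-spanning segment. Plexin-B3 (PLXNB3) is a known receptor of SEMA5A, and the receptor kinase MET can act beside plexins of the B class. Many of the genes described below belong to the type I interferon response, a programme that cells switch on when receptors in the cytosol or in endosomes meet foreign nucleic acid. In it, secreted interferon acts through JAK kinases on a complex that includes STAT2 and IRF9, which binds a response element in the promoters of antiviral genes.

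A feature was called when its two-sided limma contrast had a Benjamini-Hochberg adjusted p under 0.05 over all 15338 features. With Full, 124 features were called higher (0.808% of those tested) and 41 lower (0.267%) than with Empty, 165 in all (1.08%). All of them were members, but a feature can meet that rule through the group where it is high. Of the higher features 11 were below background on every Empty array, and of the lower ones 2 on every Full array. Their membership is thus no support for the calls. Of the higher ones 106 had a symbol, and of the lower ones 28 did. Increases were also larger: 88 higher features differed at least 1.5-fold and 42 at least 2-fold, against 9 and 0 of the lower ones. The 3 Full arrays lay wholly above the 3 Empty arrays for 123 of the 124 higher features and wholly below for all 41 lower ones. Over all features tested, arrays did not overlap for 1567 (10.2%) in the higher and 1255 (8.18%) in the lower direction. Over the 124 features, which were chosen on these same arrays, the medians were 0.71, 0.71 and 0.73 above the Empty mean on the log2 scale for Full replicates 1, 2 and 3, and replicate 2 was the lowest of the 3 for 60 features, replicate 1 for 31 and replicate 3 for 33. For the 41 lower features the medians were -0.53, -0.43 and -0.58.

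These counts moved with the arrays used and with the variance model. A fit on the Full and Empty arrays alone called 62 features higher and 3 lower. With all 12 arrays and 1 variance per group, 91 were called higher and 13 lower. Without Full replicate 2 the counts were 210 and 217, without Full replicate 1 they were 88 and 10, and without Full replicate 3 they were 87 and 16. Leaving out Empty replicate 1, 2 or 3 gave 89, 74 and 79 higher features with 18, 6 and 9 lower ones. Leaving out single ECD or ICD arrays gave 104 to 114 higher and 23 to 29 lower features. Of the 56 called genes chosen for naming, 42 were called in each of the 6 fits without 1 Full or Empty array. Lost in at least 1 of these fits were 14, namely RNF170, MYH15, DNAJC21, FAM3C, HNRNPH2, TP53INP1, PSD3, H2AC6, IFIT5, OAS1, ADAR, PSMB9, CCN1 and BHLHE40. In the fit on Full and Empty alone 16 of the 56 lost their call, these 14 and also AK6 and DDIT3.

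**Figure D1:**
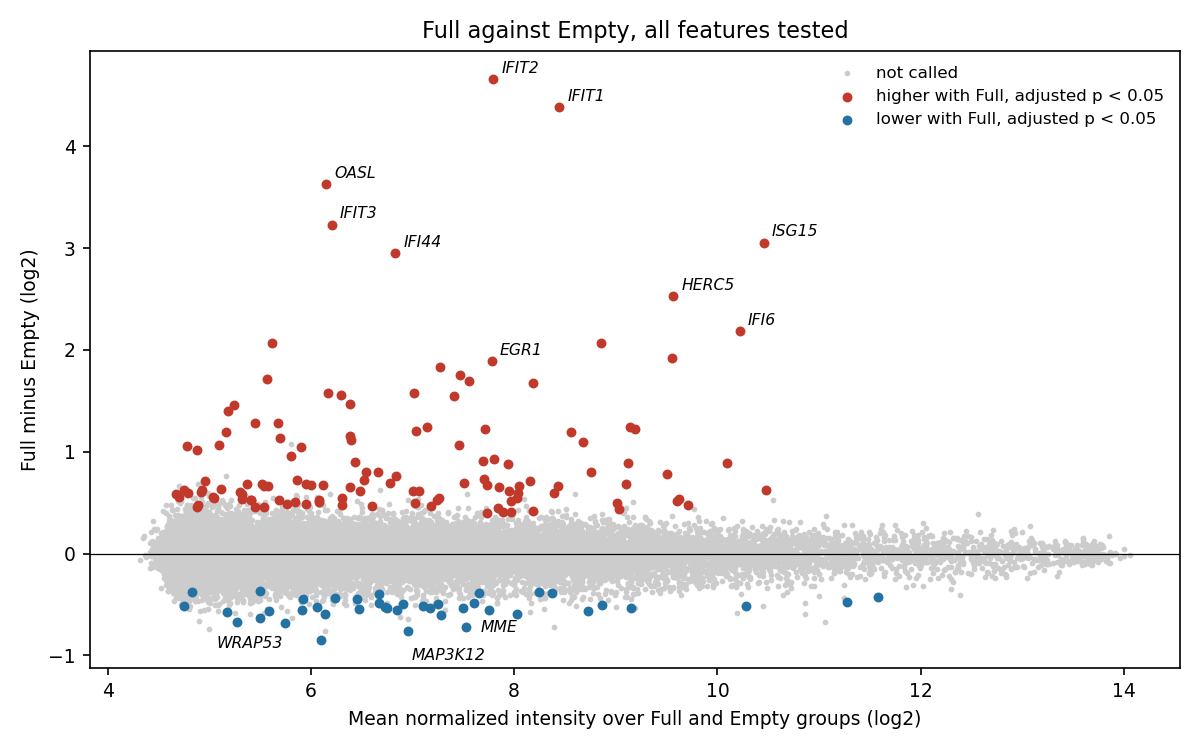
Difference between group means (Full minus Empty, log2, vertical axis) against the mean normalized intensity over the Full and Empty groups (log2, horizontal axis) for all 15338 features tested, each point 1 feature. The 124 features called higher (red) reach 4.66, whereas the 41 called lower (blue) end at -0.85.

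The targeted gene could not be used to check the labels. SEMA5A has 2 probes on the array, and both were below background on all 12 arrays, with intensities of 85.4 to 103.6 and no detection p lower than 0.274. Whether these probes match the sequence carried by the plasmids is not given in the sources used here, so they check nothing about the transfection. PLXNB3 had 1 probe, which was below background on all 12 arrays. MET reached 8.21, 8.25 and 8.14 on the Full arrays, against 8.48, 8.29 and 8.36 on the Empty arrays (normalized log2 intensity, as for all array values below), and its difference of -0.18 had an adjusted p of 0.354 in limma.

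The cell type label was set against marker genes. Of 12 lung and A549 markers with a probe, KRT8, KRT18 and NQO1 were above background on 12 of 12 arrays and ALDH1A1 on 11. KRT19, CDH1, AKR1B10, AKR1C1 and SFTPC were above background on 0 arrays, ALDH3A1 and SFTPB on 1 and EPCAM on 4. AKR1B10 and AKR1C1 are aldo-keto reductases known for high levels in A549, and their lack of signal here goes against the label. No other name is given to the cells, which are called A549 as labelled. Among markers of other cell types, the leukocyte genes CD3E and CSF1R, the fibroblast genes COL3A1, LUM and PDGFRB, and the endothelial genes PECAM1, VWF and CDH5 were on 0 arrays. CD68 and ACTA2, which tumour lines also express, were on all 12. Of the remaining leukocyte, fibroblast and endothelial markers, KDR was above background on 6 arrays, CD14 on 5, ITGAM, COL1A1 and DCN on 4, COL1A2 on 2, and PTPRC, LYZ and TEK on 1. COL1A1, a fibrillar collagen, was above background on 0 Full and 3 Empty arrays, with 4.52, 4.51 and 4.68 in Full against 4.81, 4.93 and 4.78 in Empty (adjusted p = 0.344 in limma), and its part in the results was not tested. None of the tested markers was called between Full and Empty.

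The features with the largest increases were antiviral genes of the interferon response. Genes named for the largest changes in either direction were chosen with non-overlapping arrays as a condition. The separation of their groups is thus no further result. IFIT2, whose protein binds RNA and limits translation of viral messages, reached 10.15, 10.40 and 9.84 with Full, against 5.41, 5.47 and 5.51 with Empty. IFIT1, which recognises RNA caps that lack 2'-O methylation, reached 10.69, 10.87 and 10.33 with Full, against 6.30, 6.32 and 6.13 with Empty. The arrays of the 2 groups lay far apart for both genes, and Full replicate 3 was the lowest of the Full arrays. IFIT2 was 25.3-fold higher (log2 4.66 ± 0.12, SE, adjusted p = 1.13e-11 in limma) and IFIT1 20.8-fold higher (log2 4.38 ± 0.12, adjusted p = 1.13e-11).

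For IFIT3, a partner of IFIT1 and IFIT2 in their complexes, the Full arrays gave 7.85, 7.93 and 7.67 and the Empty arrays 4.47, 4.64 and 4.65. Its probes were below background on every Empty array, so the change is a bound: IFIT3 was at least 8.78-fold higher with Full (adjusted p = 4.03e-11 in limma). A bound takes the mean of the Full arrays over the lowest level still above background on the Empty arrays. The remaining tested member of the family, IFIT5, had smaller values, with 5.17, 5.29 and 5.21 for Full against 4.89, 4.55 and 4.43 for Empty (log2 difference 0.60, adjusted p = 0.0176). All 4 tested IFIT genes thus rose, with a median of 3.81 against 0.01 over all features. With IFIT3 at its bound the median was 3.76. Further probes were below background on every Empty array and gave bounds of at least 1.27-fold for IFIT1 and at least 1.17-fold and 6.95-fold for IFIT3.

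The OAS family makes or resembles enzymes that respond to double-stranded RNA and activate RNase L. OASL, the member without such enzyme activity, reached 7.84, 7.83 and 8.22 with Full, against 4.29, 4.32 and 4.39 with Empty, where it was below background, so it was at least 9.71-fold higher (adjusted p = 4.03e-11 in limma). OAS3 followed with 7.72, 7.87 and 7.82 in Full against 6.18, 6.22 and 6.27 in Empty, a log2 difference of 1.58. No array of either group crossed into the other for these genes, which was a condition of choice for OASL. OAS2 was at least 1.63-fold higher from an Empty level below background, and OAS1 differed by 0.51 (adjusted p = 0.0242). All 4 tested members rose, with a median of 1.30, or 1.14 with OASL and OAS2 at their bounds. Second probes of OASL, OAS3 and OAS2, below background with Empty, gave at least 1.30-fold, 1.43-fold and 1.07-fold. Further OAS1 probes near background gave -0.06 and 0.18, so the probes disagreed.

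Some of the increased genes carry in their promoters the letters that the interferon response element is known by. The element was searched as GAAA, any 2 bases and GAAA again, on either strand, in RefSeq promoter windows of 300 bases (250 before the start of the gene to 50 after it, build GRCh38.p14). Of the 12 genes with the largest increases, 9 had a window and 7 of these held a match. IFIT1, ISG15 and IFI6 are shown from those 7, with each match in capitals and each line written 5′ to 3′ along the strand of the gene. A match on the other strand appears as TTTC, 2 bases and TTTC, and neighbouring matches can overlap.
IFIT1: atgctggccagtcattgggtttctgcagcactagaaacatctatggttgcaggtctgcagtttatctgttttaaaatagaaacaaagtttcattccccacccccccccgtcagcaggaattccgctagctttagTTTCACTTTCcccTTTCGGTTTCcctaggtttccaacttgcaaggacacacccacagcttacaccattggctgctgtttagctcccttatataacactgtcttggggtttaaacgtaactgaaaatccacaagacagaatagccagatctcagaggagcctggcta
ISG15: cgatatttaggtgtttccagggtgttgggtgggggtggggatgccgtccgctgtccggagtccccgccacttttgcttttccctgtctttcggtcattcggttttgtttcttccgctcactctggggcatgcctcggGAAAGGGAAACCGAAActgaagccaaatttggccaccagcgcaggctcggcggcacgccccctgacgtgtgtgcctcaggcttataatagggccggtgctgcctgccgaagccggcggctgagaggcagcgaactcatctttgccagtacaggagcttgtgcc
IFI6: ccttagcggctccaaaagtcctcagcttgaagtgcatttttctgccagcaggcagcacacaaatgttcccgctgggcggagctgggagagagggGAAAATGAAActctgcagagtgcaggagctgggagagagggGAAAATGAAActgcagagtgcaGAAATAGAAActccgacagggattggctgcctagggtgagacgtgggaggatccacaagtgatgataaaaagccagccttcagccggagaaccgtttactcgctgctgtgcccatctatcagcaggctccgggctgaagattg
The IFIT1 window lies at chr10:89392373-89392672 on the plus strand, with matches that begin 116 and 103 bases before the gene's start. The ISG15 window is chr1:1013247-1013546 on the plus strand, where 2 overlapping matches begin 113 and 107 bases before the start. In IFI6, at chr1:27672143-27672442 on the minus strand, 3 matches begin 156, 115 and 93 bases before it.

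Of all 27305 promoter windows, 996 (3.65%) held at least 1 match, and of the 8849 tested genes with a window 249 (2.81%) did. Among genes called higher with Full, 27 of the 81 with a window held one (33.3%). The share was 58.1% (18 of 31) for those at least 2-fold higher and 18% (9 of 50) for the others. Among genes called lower it was 0 of 24. A match is a description of these letters in this window and shows no binding. Among named genes called higher that had a window, OAS1, IRF9, RIGI, PARP9, SP110, ADAR, IFI35, UBE2L6 and PSMB9 held none. Nor did EGR1, ATF3, KLF4, PMAIP1, DDIT3, PPP1R15A, ADM and BHLHE40. Only a gap of 2 bases was searched, so a window without a match may hold the element with another gap. IFIT2, OASL and IRF7 had no window to search.

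**Figure D2:**
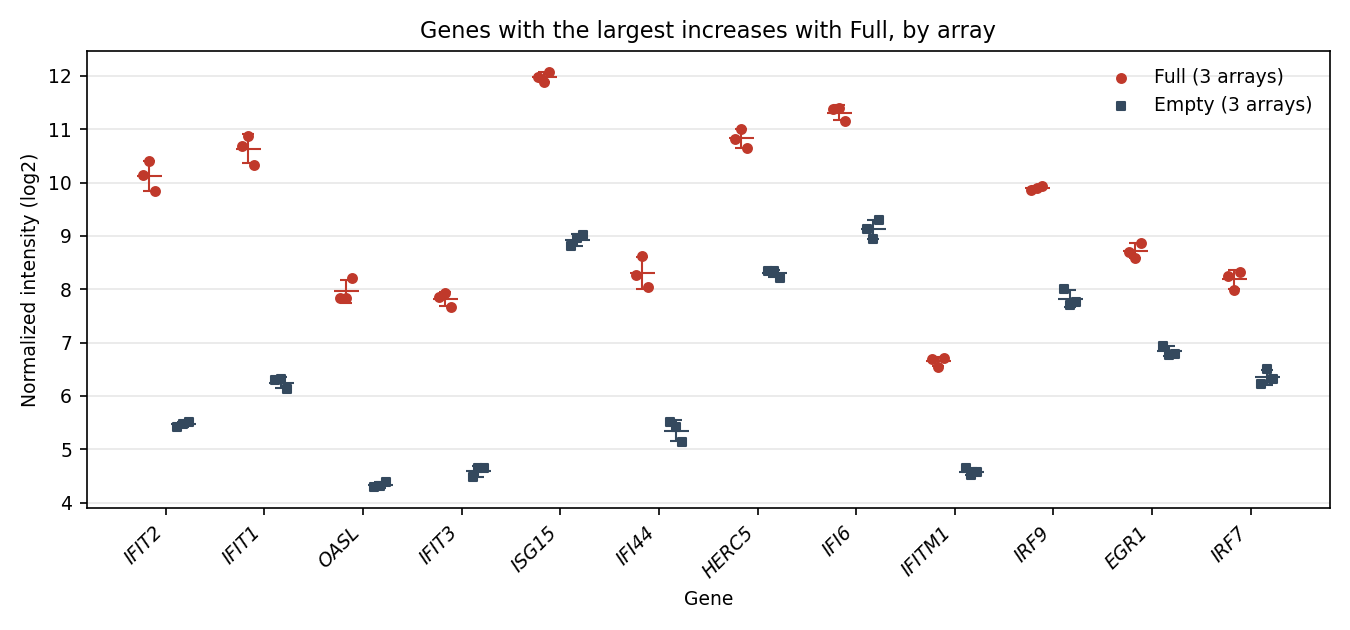
Normalized log2 intensity (vertical axis) of the 12 genes with the largest increases, on the 3 Full arrays (red circles) and the 3 Empty arrays (dark squares), each point 1 array in replicate order, with bars for the mean and SD. The Full arrays lie above the Empty arrays for every gene shown, which was a condition for choosing them. The genes run from IFIT2 (mean 10.13 against 5.46) to IRF7 (8.19 against 6.35).

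ISG15 is a ubiquitin-like protein that is attached to newly made proteins, and its conjugation machinery rose with it. ISG15 itself reached 11.98, 11.88 and 12.08 with Full, against 8.80, 8.95 and 9.02 with Empty (8.30-fold, adjusted p = 1.91e-10 in limma). HERC5, the main ligase for ISG15, reached 10.82, 11.01 and 10.65 with Full, against 8.34, 8.33 and 8.22 with Empty (5.77-fold). Both stood far from the Empty arrays, and the spread of the Full arrays (SD 0.10 and 0.18) was small beside the change. USP18, which removes ISG15 and dampens interferon signalling, differed by 1.71 on the log2 scale, and UBE2L6, the conjugating enzyme, by 0.80, although a second UBE2L6 probe above background on all 12 arrays gave 0.35 (adjusted p = 0.266 in limma). Of the 8 tested members of the system 6 rose and 0 fell (median 0.86).

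Among IFI6, IFI27, IFI44 and their relatives, 5 of 9 tested genes rose and 0 fell (median 0.88). IFI44 reached 8.26, 8.63 and 8.03 with Full, against 5.51, 5.41 and 5.13 with Empty (log2 difference 2.95, adjusted p = 3.52e-09 in limma). IFI6, an interferon-induced protein that protects cells from apoptosis, reached 11.38, 11.40 and 11.16 with Full, against 9.13, 8.94 and 9.30 with Empty (4.55-fold). Neither gene had overlapping groups, which was a condition of their choice. A second IFI6 probe gave 2.53, above the 2.19 of the probe used. IFI35 differed by 0.88, and IFI27 by 1.28 with an Empty group that varied more (SD 0.33) than the Full group (SD 0.15). The IFI44L probe used was below background on every Empty array, so IFI44L was at least 1.54-fold higher. Another IFI44L probe, above background on single arrays of both groups, gave -0.14 (adjusted p = 0.58 in limma), so its probes disagreed.

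The list of membrane and other restriction factors, proteins that block steps of viral growth, had 9 of 17 tested members higher and 0 lower (median 0.62), with 5 called in the fit on Full and Empty alone. IFITM1, which hinders fusion of viral and cell membranes, reached 6.69, 6.55 and 6.71 with Full, against 4.65, 4.52 and 4.57 with Empty, all below background, and was at least 3.91-fold higher (adjusted p = 1.51e-08 in limma). ISG20, an exonuclease that degrades single-stranded RNA, reached 8.18, 8.03 and 8.32 with Full, against 6.65, 6.55 and 6.70 with Empty. The groups were again fully separate, which was a condition of choice for IFITM1. TRIM21, a cytosolic antibody receptor and ubiquitin ligase, differed by 1.12, and SHFL, which inhibits translational frameshifting, by 1.05. MX1, a GTPase that traps viral capsids, was at least 1.22-fold higher, the 1 call among 4 tested MX and GBP genes, and it was not called with a normalization offset of 50.

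Of 9 interferon-induced PARPs and PML body genes 5 rose and 0 fell (median 0.67). PARP9, which works with the ligase DTX3L, reached 6.97, 6.97 and 7.29 with Full, against 5.32, 5.57 and 5.68 with Empty (log2 difference 1.55). PARP12 differed by 1.25 and SP110, a nuclear body protein, by 1.22, with 2 further SP110 probes at 1.16 and 1.11 and another near background at 0.26. PARP10 reached 6.13, 5.31 and 6.23 with Full, against 4.73, 4.39 and 4.35 with Empty, so Full replicate 2 stood well below the other Full arrays while still above Empty.

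The cytosolic RNA sensors rose less evenly, with 4 of 11 tested members higher, 0 lower and a median of 0.27. IFIH1 (MDA5), a sensor of long double-stranded RNA, reached 8.51, 8.65 and 8.05 with Full, against 6.72, 6.74 and 6.68 with Empty (log2 difference 1.69, adjusted p = 1.57e-06 in limma). RIGI, which senses RNA with a 5′ triphosphate, was below background on the Empty arrays and at least 2.44-fold higher with Full. DDX60, a helicase known to assist RIGI, had 5.29, 6.11 and 5.50 in Full against 4.47, 4.63 and 4.59 in Empty, at least 1.93-fold. ADAR, which edits adenosine to inosine in double-stranded RNA, differed by 0.54 and by 0.60 on a second probe. None of the 4 tested genes of cytosolic DNA sensing passed the test (median 0.01): CGAS, which senses DNA, differed by -0.04 (adjusted p = 0.903) and its adaptor STING1 by 0.26 (adjusted p = 0.285).

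Transcription factors of the response divided likewise. IRF9, which gives that complex its DNA sequence specificity, reached 9.86, 9.89 and 9.93 with Full, against 8.00, 7.71 and 7.76 with Empty (4.19-fold, adjusted p = 1.23e-08 in limma). IRF7, a regulator that amplifies interferon genes, reached 8.25, 7.99 and 8.33 with Full, against 6.23, 6.50 and 6.32 with Empty (3.57-fold), and a second probe gave a log2 difference of 1.73. These were the 2 calls among 5 tested interferon regulatory factors. Of 17 tested interferon receptor and JAK-STAT genes 0 were called, and 9 differences lay above 0 (median 0.00). Among those below 0 were the receptor chain IFNAR1 (-0.23, adjusted p = 0.386) and the kinase JAK1 (-0.33, adjusted p = 0.352).

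Transcripts of secreted mediators were mostly at or below background. CCL5, a chemokine for T cells and monocytes, was the 1 call among 11 tested interferon, chemokine and cytokine genes, with 6.99, 6.82 and 7.09 in Full against 5.62, 5.82 and 5.98 in Empty (log2 difference 1.16, adjusted p = 0.000356 in limma). A second CCL5 probe was below background on every Empty array and gave at least 2.04-fold. IFNB1, the gene of interferon beta, was below background on all Full and Empty arrays, with 4.40, 4.54 and 4.40 for Full against 4.26, 4.27 and 4.28 for Empty (difference 0.18, adjusted p = 0.458). CXCL10, a chemokine that interferon is known to induce strongly, had 4.68, 5.34 and 4.92 in Full against 4.33, 4.53 and 4.48 in Empty, with an adjusted p of 0.0885. Of the list's genes 10 were above background on no array.

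Class I antigen presentation, by which cells display peptides to T cells, had 3 of 16 tested members higher and 0 lower (median 0.28). TAP1, the peptide transporter, reached 9.25, 8.98 and 9.44 with Full, against 8.03, 8.14 and 8.23 with Empty (log2 difference 1.09, adjusted p = 3.36e-05 in limma). HLA-E differed by 0.66 and PSMB9, an immunoproteasome subunit, by 0.53. The light chain B2M had a difference of 0.18 (adjusted p = 0.368).

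Genes outside the interferon lists rose as well, among them early response genes, which cells transcribe within minutes of a stimulus. EGR1, a zinc finger transcription factor, reached 8.70, 8.59 and 8.87 with Full, against 6.94, 6.77 and 6.80 with Empty (3.70-fold, adjusted p = 1.66e-08 in limma). ATF3, a stress-induced factor of the ATF family, reached 6.21, 6.37 and 6.39 with Full, against 5.15, 4.98 and 4.99 with Empty (log2 difference 1.28). For both genes the groups were separate by more than their spread. KLF4 differed by 0.71, with a second probe at 0.33 (adjusted p = 0.128), and CCN1, a matricellular protein, by 0.52. Of 23 tested AP-1 and early response genes 6 rose and 0 fell (median 0.24), with 3 called in the fit on Full and Empty alone. Of 16 tested genes of ERK output and feedback 0 were called (median 0.08), and of 14 NF-kB subunits and feedback genes also 0 (median 0.24, NFKBIA 0.37 with adjusted p = 0.134).

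Of 25 tested targets of ATF4 and CHOP 3 rose and 0 fell (median 0.19): ATF3, PPP1R15A, which helps restore translation after stress (0.67), and DDIT3, the gene of CHOP itself (0.77). PMAIP1, whose protein NOXA promotes apoptosis, reached 9.73, 10.06 and 9.49 with Full, against 8.60, 8.46 and 8.49 with Empty (log2 difference 1.25, adjusted p = 7.54e-05 in limma; second probe 1.28). It was the 1 call among 16 tested BCL2 family and caspase genes. ADM, a vasodilator peptide, differed by 0.69 and BHLHE40 by 0.53, the 2 calls among 30 tested hypoxia and glycolysis genes, of which ADM alone was called in the fit on Full and Empty.

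**Figure D3:**
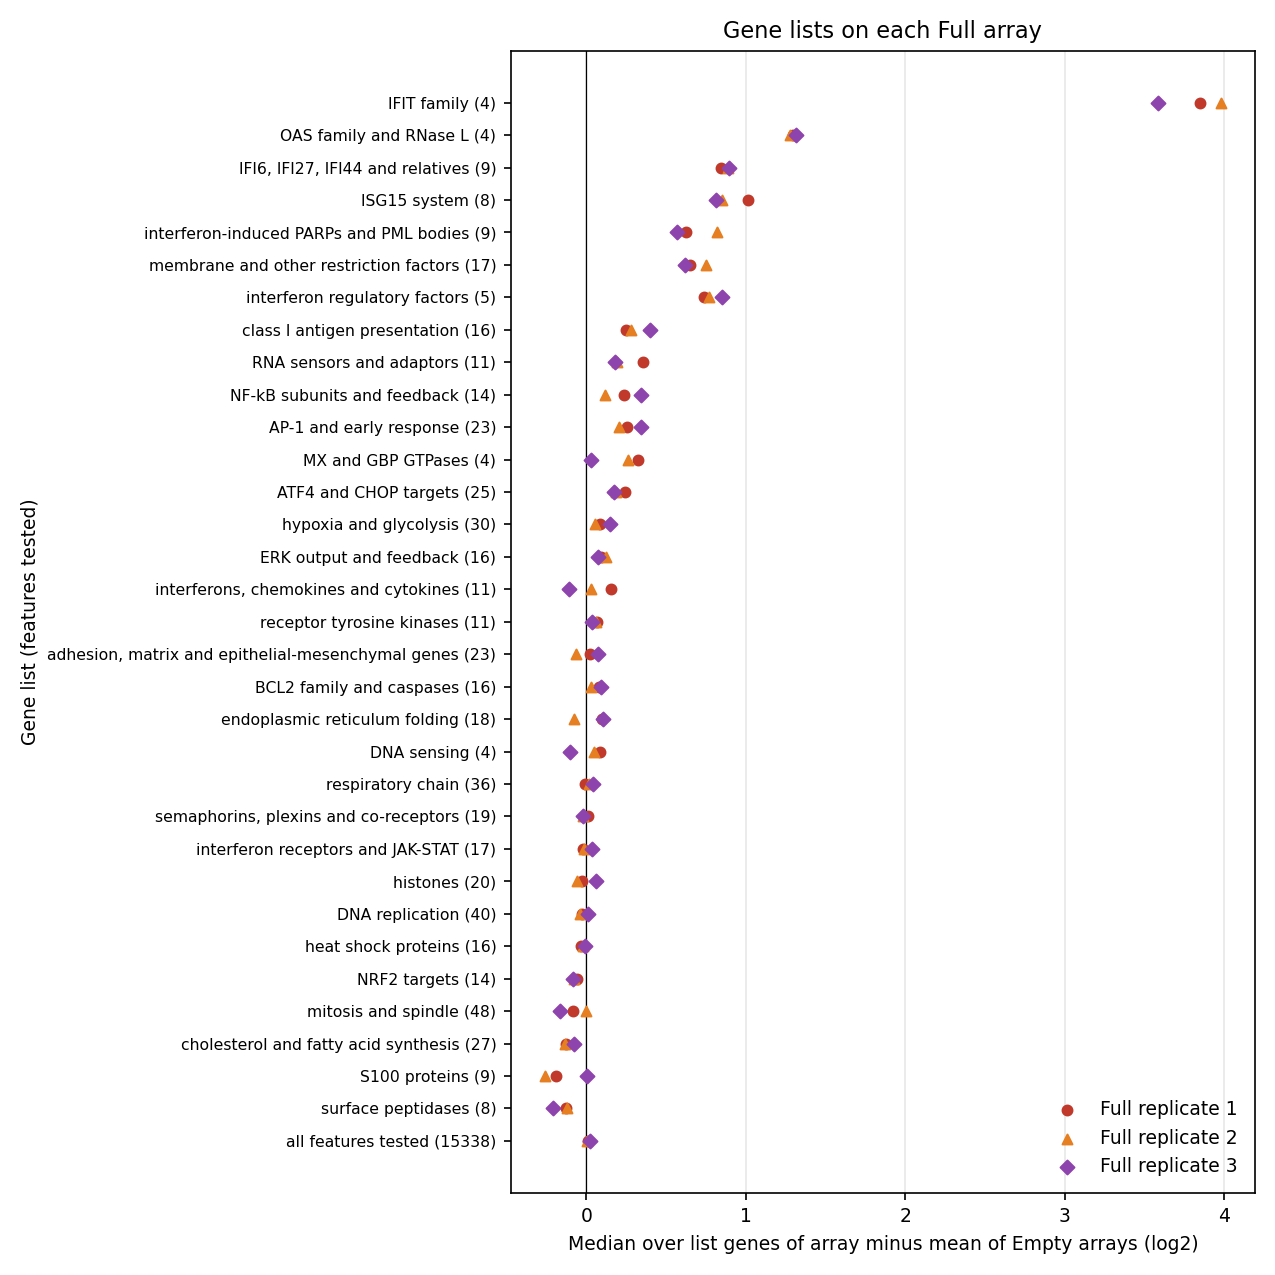
Median over the tested genes of each list of the difference between 1 Full array and the mean of the Empty arrays (log2, horizontal axis), with 1 row per list shown, the number of tested genes in brackets and a symbol per Full replicate. The IFIT family stands at 3.58 to 3.98 on the 3 Full arrays and the OAS family at 1.28 to 1.31, whereas all features tested stand at 0.00 to 0.02.

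Many lists had no call in either direction. This held for the 40 DNA replication genes, 36 respiratory chain genes, 27 cholesterol and fatty acid genes, 18 genes of folding in the endoplasmic reticulum, 16 heat shock genes and 14 NRF2 targets that were tested. It also held for 23 adhesion, matrix and epithelial-mesenchymal genes, such as VIM (difference 0.01, adjusted p = 0.982), and for 11 receptor tyrosine kinases, such as EGFR (0.29, adjusted p = 0.153). Of the 27 cholesterol and fatty acid genes, 10 had all Full arrays below all Empty arrays and 0 had them above (median -0.14). Over all features 8.18% had them below and 10.2% above. The shift of this list was not tested as a set. Of 33 semaphorins, plexins and co-receptors with a probe, 19 were tested and 0 called, with 8 below background on all arrays. NRP1, a neuropilin that serves semaphorins as a co-receptor, had 5.57, 5.85 and 5.67 in Full against 6.08, 6.18 and 6.13 in Empty (-0.43, adjusted p = 0.0949 in limma).

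Decreases were small, and the largest was in WRAP53, a protein that brings telomerase to its site of assembly. WRAP53 reached 5.70, 5.46 and 5.87 with Full, against 6.53, 6.64 and 6.40 with Empty (1.80-fold lower, log2 -0.85 ± 0.11, SE, adjusted p = 0.000747 in limma). MAP3K12, a kinase of the neuronal stress response upstream of JNK, had 6.79, 6.38 and 6.54 in Full against 7.22, 7.34 and 7.44 in Empty (1.70-fold lower, adjusted p = 0.00143). MME (neprilysin), a surface enzyme that cleaves peptides, had 7.20, 7.38 and 6.93 in Full against 7.84, 7.89 and 7.94 in Empty (1.65-fold lower, adjusted p = 0.00337). In these 3 genes every Full array lay below every Empty array, which was a condition of their choice. All 3 were called in all fits without 1 Full or Empty array. MME was the 1 call among 8 surface peptidases, and ANPEP had a difference of -0.26 (adjusted p = 0.264). The other 3 MME probes were below background on all arrays.

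AK6, a nuclear adenylate kinase, had 8.55, 8.42 and 8.35 in Full against 8.94, 9.10 and 8.98 in Empty (-0.57, adjusted p = 0.00352 in limma, second probe -0.43 with adjusted p = 0.117), and lost its call in the fit on Full and Empty alone. The other 8 of the 12 largest decreases lost their call in at least 1 fit without a Full or Empty array. They were RNF170, a ubiquitin ligase of the endoplasmic reticulum (-0.68), the myosin MYH15 (-0.67), the co-chaperone DNAJC21 (-0.63), the secreted factor FAM3C (-0.60, second probe -0.65), the splicing factor HNRNPH2 (-0.59, second probe -0.29), the stress-induced gene TP53INP1 (-0.55, second probe -0.24), PSD3 (-0.55) and the histone gene H2AC6 (-0.55). For DNAJC21 and PSD3 another probe near background gave 0.13 and 0.04, so the probes of each gene disagreed. H2AC6 belongs to a family of near-identical genes that a probe may not separate.

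**Figure D4:**
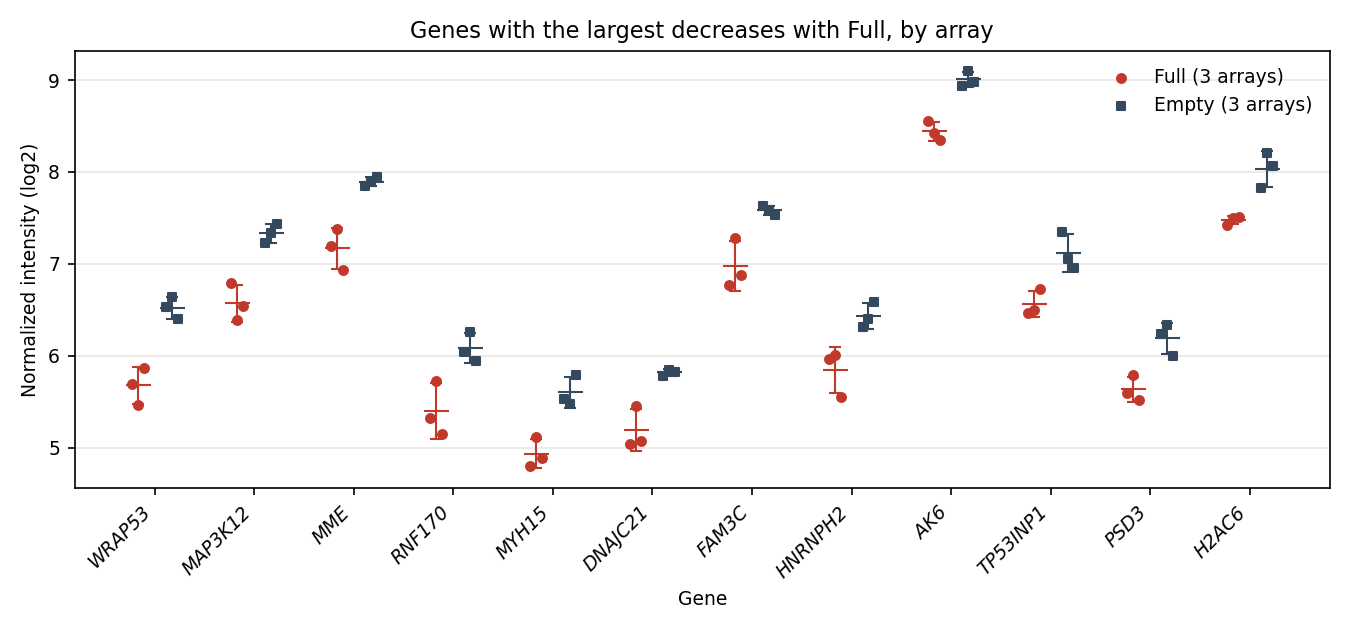
Normalized log2 intensity (vertical axis) of the 12 genes with the largest decreases, on the 3 Full arrays (red circles) and the 3 Empty arrays (dark squares), each point 1 array in replicate order, with bars for the mean and SD. Non-overlapping arrays were a condition for choosing these genes. The gap between groups is narrower than in the increases: WRAP53 averaged 5.68 with Full and 6.52 with Empty, and H2AC6 averaged 7.48 and 8.03.

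Full arrays varied more among themselves than those of any other group. The median SD over features was 0.15 for Full, against 0.10 for ECD, 0.12 for ICD and 0.10 for Empty, and 127 features had an SD above 0.5 with Full, against 15, 36 and 18. Full arrays correlated with each other at r = 0.989 to 0.993 over all features, and Empty arrays at 0.995 to 0.996. Full held the largest SD of the 4 groups for 6478 features (42.2%). Full replicates 2 and 3 were the farthest pair, with an SD of their differences of 0.32.

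Genes of mitosis stood among the most variable on Full arrays. CENPF, a kinetochore protein, had 7.83, 7.89 and 6.63 in Full against 7.74, 7.94 and 8.07 in Empty. HMMR, a spindle-associated receptor for hyaluronan, had 9.61, 10.01 and 8.68 in Full against 9.78, 9.84 and 9.78 in Empty. In both genes Full replicate 3 was about 1 unit below the other Full arrays, which lay with or near Empty. KIF20B, a kinesin of cell division, and SGO2, which protects centromeric cohesion, had the same order, with 6.90 and 4.78 in Full replicate 3 against 8.01 to 8.35 and 5.80 to 6.32 in the other Full arrays. RNU105C, a small nucleolar RNA, had the largest SD of all (0.97), with 7.10, 6.69 and 5.25 in Full against 5.69, 5.09 and 5.03 in Empty. CEP57L1, CIRSR and DNTTIP2 were also lowest in Full replicate 3, whereas SLC25A22, a mitochondrial glutamate carrier (7.44, 6.56 and 7.87), and ARHGEF40 (5.90, 4.59 and 5.47) were lowest in Full replicate 2. These 10 genes were chosen by their SD, so the values are a description.

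As a whole, 0 of the 48 tested mitosis and spindle genes were called between Full and Empty (median -0.09, with -0.09, -0.00 and -0.17 on Full replicates 1, 2 and 3). Without Full replicate 2, 5 of the 48 were called lower, in a fit that called 217 of all 15338 features lower, against 41 in the main fit. Full replicate 3 was more than 0.5 below the mean of the other Full arrays for 463 genes (4.24% of those tested), which included 12 of the 48, and Full replicate 2 was that far above for 376 genes (3.45%), which included 9. The median genomic length of these genes was 53.4 and 46.4 kb, against 27.2 kb over all tested genes. It was 18.6 kb for the 380 genes lowest in Full replicate 2 and 19.9 kb for the 187 highest in Full replicate 3. The part of culture, RNA quality or handling in these differences was not tested.

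**Figure D5:**
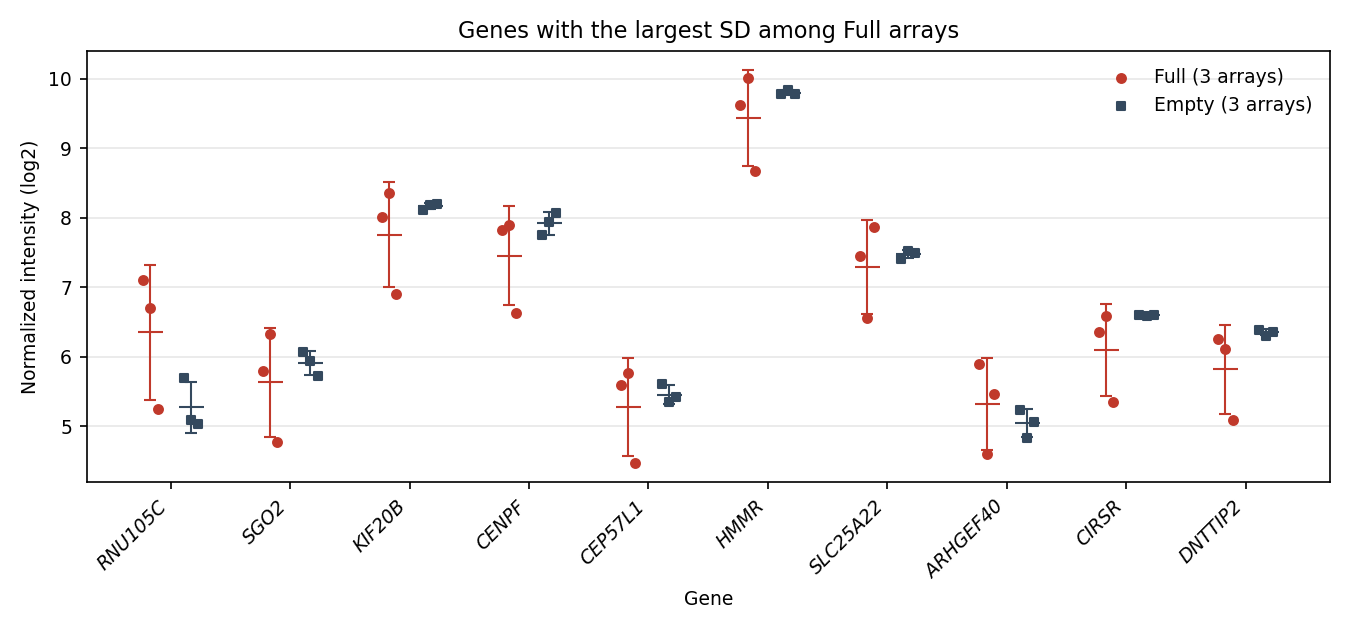
Normalized log2 intensity (vertical axis) of the 10 genes with the largest SD among the Full arrays, on the 3 Full arrays (red circles) and the 3 Empty arrays (dark squares), each point 1 array in replicate order, with bars for the mean and SD. In HMMR, CENPF, KIF20B and SGO2 the third Full array is the low one, whereas in SLC25A22 and ARHGEF40 it is the second.

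The Full group was also set against each domain alone, in the same fit, which shows where it differs from them. These comparisons share the Full arrays with the one above. Against ECD, 1239 features were higher (8.08%) and 1563 lower (10.2%), 2802 in all. Without Full replicate 3, and without ECD replicate 1, 2 or 3, the total was 1557, 1650, 1517 and 1656. Against ICD, 308 were higher (2.01%) and 459 lower (2.99%), 767 in all. That total changed to 240, 1588 and 190 without Full replicates 1, 2 and 3, to 193, 198 and 438 without ICD replicates 1, 2 and 3, to 510 and 500 without ECD replicate 2 and without Empty replicate 2 and to 512 without Empty replicate 1, and it was 22 in a fit on the Full and ICD arrays alone.

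Many interferon-response genes stood lower with Full than with ECD, and some stood higher with Full than with ICD. IFI6 averaged 11.31 with Full and 12.83 with ECD (log2 difference -1.52, adjusted p = 3.57e-06 in limma), and against ICD (10.57) it was 0.74 higher (adjusted p = 0.00469). OAS2 had 5.47, 5.29 and 5.40 in Full against 7.46, 7.66 and 7.21 in ECD (-2.05, adjusted p = 2.82e-07), and 4.77, 4.75 and 4.73 in ICD (0.64, adjusted p = 0.011). For each of these genes Full lay between the 2 domains. IFI27, IFI44L, IFIH1 and SAMD9 were the other genes furthest below ECD, at -1.79, -1.74, -1.61 and -1.58. Against ICD, IFIH1 (0.32, adjusted p = 0.15) and SAMD9 (0.46, adjusted p = 0.146) were not called.

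Over all features 10.2% were lower and 8.08% higher with Full than with ECD, and 2.01% were higher than with ICD. The fit on the Full and ICD arrays alone called 22 features. By list, the 4 IFIT genes were all lower with Full than with ECD (median -1.26), and 2 of them were higher than with ICD. Of the 4 tested OAS genes 4 were lower than with ECD and 3 higher than with ICD. The counts were 7 lower than ECD and 4 higher than ICD among 8 genes of the ISG15 system, and 12 and 7 among 17 restriction factors, of which 1 was higher than ECD. Among 11 RNA sensors 8 were lower and 1 higher than ECD, and 0 were called against ICD. Of the 9 genes of IFI6, IFI27, IFI44 and relatives 6 were lower and 2 higher than ECD, and 5 were higher than ICD. Of 5 interferon regulatory factors 3 were lower and 1 higher than ECD, and 2 were higher than ICD. OAS3, IFITM1 and IRF7 were among the 6 genes furthest above ICD, at 0.92, 1.03 and 1.04.

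For EGR1, Full also lay between the domains. Its Full arrays (8.70, 8.59 and 8.87) lay close below the ECD arrays (9.01, 9.07 and 9.06, difference -0.32, adjusted p = 0.0373 in limma) and well above the ICD arrays (7.41, 7.49 and 7.66, difference 1.20, adjusted p = 9.32e-05). WRAP53 averaged 5.68 with Full and also with ECD (difference -0.00 with a standard error of 0.11) and was 0.95 lower than with ICD (adjusted p = 0.00114). MAP3K12 followed it, with 0.18 against ECD (adjusted p = 0.256) and -0.74 against ICD (adjusted p = 0.00357). MME was lower with Full than with ECD (-0.58, adjusted p = 0.00487), and against ICD its difference was -0.32 (adjusted p = 0.105).

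Among genes higher with Full than with ECD, RNU105C, which had the largest SD among Full arrays, was below background on all ECD arrays and at least 3.21-fold higher (adjusted p = 0.00388 in limma). Others were HINT3 (log2 difference 1.17), a nucleotide hydrolase, the nuclear pore gene NUP43 (1.12), the transcriptional regulator NACC1 (0.96), BLOC1S1 (0.91), a subunit of the BLOC-1 trafficking complex, and the tRNA methyltransferase gene TRMT2B (0.83). None of these was called against Empty. A second HINT3 probe gave -0.05 against Empty, where the probe used gave 0.19. Of the 48 mitosis and spindle genes 21 were lower with Full than with ECD and 0 higher (median -0.28). Full replicate 3 was more than 0.5 below the mean of the other Full arrays for 12 of these 48. Of 9 S100 calcium-binding genes 4 were higher than with ECD and 0 lower (median 0.47). Over all features 10.2% were lower and 8.08% higher than with ECD, and neither list was tested as a set. Against Empty 0 of the 9 S100 genes were called, with 3 differences above 0 and a median of -0.16.

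Against ICD, the largest further increases were in HNRNPA1P10, a pseudogene transcript that a probe may not separate from its parent gene (1.20, adjusted p = 0.000511 in limma), and in TPX2, a spindle assembly factor (0.97, adjusted p = 0.00256). Neither passed the test between Full and Empty (adjusted p = 0.292 and 0.347), and the ICD arrays were the low ones. C1QTNF4 was the gene furthest below ICD, with 4.26, 4.32 and 4.27 in Full against 5.64, 6.24 and 5.44 in ICD. It was below background with both Full and Empty, so it was at least 2.11-fold lower than with ICD (adjusted p = 0.000479). WRAP53, CNST (-0.87), CDC42SE1 (-0.80), the glucosylceramide synthase gene UGCG (-0.78) and the splicing regulator TRA2A (-0.78) came next. For CNST, CDC42SE1, UGCG and TRA2A the adjusted p against Empty was 0.483, 0.607, 0.163 and 0.987.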

How the data were processed

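RNA of 12 samples labelled A549 was hybridized as biotin-labelled cRNA to Illumina bead arrays, per the labels' protocols. The authors deposited, per array, an intensity per probe on a linear scale and a detection p-value. They also deposited log2 values, which match quantile-normalized log2 intensities to within 5e-09. The scanner software is not given in the sources used here. Sample titles gave the group and replicate number of each array. Of 47323 probes, 30113 had 1 gene symbol in the platform annotation, 8 several and 17202 none, and 30074 were matched by Entrez identifier to RefSeq (GRCh38.p14), which changed 0 symbols. Array pairs held 0 identical columns.

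Intensities were normalized with neqc (offset 16) in limma 3.58.1 under R 4.3.3. A probe entered if all 3 arrays of any 1 group had a detection p under 0.05 (18728 did), and the brightest probe stood for each symbol (10912 with a symbol, 4426 unnamed). Probes with no symbol, or several, were tested as unnamed. Contrasts came from 1 lmFit and eBayes fit over all 12 arrays (8 residual degrees of freedom, 6.50 prior ones and a median SD of 0.145), two-sided, with Benjamini-Hochberg adjustment. The background and offset shrink changes of dim probes. Between 18659 and 20366 probes were above background per array. The fit was run on simulated data with 1 spread per feature for all groups, so that run does not cover the larger spread among Full arrays.

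Some gene lists are not reported here. The members and the gene lists were chosen with earlier results of these data known. Named were the 12 called genes per direction with the largest change whose arrays did not overlap, up to 4 called members of each list with the smallest adjusted p, SEMA5A, PLXNB3, MET, the 10 genes with the largest SD among Full arrays, and the 6 largest in each direction against ECD and ICD. Others, among them those of the closing paragraphs, NRP1 and the uncalled genes given as values, were chosen after their values were seen. Alternatives tried were other settings of scaling, offset and background correction, of the detection filter and the probe choice, of the arrays fitted, variance model, threshold, replicate block and each array left out. Plots were made in Python 3.11.15 with matplotlib 3.10.9.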

Additional observations from a re-analysis of the deposited data

How the results depend on the processing

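With 3 arrays a group, the number of arrays limits the precision, and probes near background give only bounds. Of the 56 called genes chosen for naming, 0 changed the sign of their difference from Empty under the alternatives run, while counts moved. With an offset of 50, IFIT5 and MX1 lost their call. Full against Empty gave 84 lower features without background correction and with the authors' log2 values (150 higher in each), 79 with an offset of 50, 27 without a detection filter, 13 with 1 variance per group and 76 with trend and robust settings. With only the 2 groups compared it gave 62 higher and 3 lower, and at an adjusted p under 0.01 it gave 72 and 4. Full against ICD gave 1501 without background correction and with the authors' values, 1385, 133 and 1342 with offset 50, 1 variance per group and trend and robust settings, 22 with only the 2 groups, and 77 at an adjusted p under 0.01. Full against ECD gave 1593 with only the 2 groups and 891 at an adjusted p under 0.01. The causes were not tested, except that the lower threshold calls fewer by construction. The 2-group fits hold fewer arrays and take the spread from those groups alone. The main fit takes 1 spread per feature from all groups, while the median SD was 0.15 for Full and 0.10 for Empty. Its standard errors and adjusted p-values for Full may thus be too small. With each array left out in turn, the counts ranged from 74 to 210 higher and 6 to 217 lower against Empty, from 1517 to 3700 against ECD and from 190 to 1588 against ICD. At an unadjusted p under 0.05, 1169 features were higher and 1089 lower with Full than with Empty.

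The labels do not say whether the replicate numbers pair the arrays. Deviations of Full and Empty arrays with the same number correlated at 0.02, 0.05 and 0.05. Those with different numbers correlated at -0.0474 to -0.0005. Correlations this weak cannot settle whether the arrays are paired. With the replicate number as a block the counts were 109 higher and 31 lower against Empty, 2812 against ECD and 670 against ICD, and of the named genes H2AC6 and BHLHE40 lost their call.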

Other observations

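Several genes outside the lists also rose with Full. REC8, a cohesin of meiosis, had 7.02, 6.72 and 7.12 in Full against 5.34, 5.36 and 5.42 in Empty (log2 difference 1.58, adjusted p = 1.49e-06 in limma). HELZ2, a helicase that coactivates nuclear receptors, differed by 1.67, and ANKRD1, a nuclear ankyrin-repeat protein and target of YAP, by 1.47 (adjusted p = 1.65e-06). HES4, a repressor of the HES family, differed by 1.19, and BAMBI, a pseudoreceptor for TGF-beta ligands, by 0.80. These 5 genes were chosen after their values were seen, and the groups did not overlap in any of them. That held for 123 of the 124 features called higher and, in the higher direction, for 10.2% of all features. The separation is thus no further result. Against ECD the ANKRD1 difference was 0.14 (adjusted p = 0.404) and that of BAMBI -0.05 (adjusted p = 0.745), whereas HES4 was lower with Full (-0.47, adjusted p = 0.013).

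Among genes of small RNAs, called with Full against Empty were the vault RNA gene VTRNA1-1 (1.19, adjusted p = 4.47e-05 in limma), the 5S ribosomal RNA gene RNA5S9 (0.90, adjusted p = 0.00126), the Y RNA gene RNY4 (0.72, adjusted p = 0.0299) and the spliceosomal RNU6ATAC (0.46, adjusted p = 0.0354). By RefSeq class, these were the 1 vault RNA tested, 1 of 3 ribosomal RNAs, 1 of 4 Y RNAs and 1 of 11 snRNAs. The single genes of RNase P RNA (0.36), RNase MRP RNA (0.08) and scRNA (-0.05) were not called, nor were any of 96 snoRNAs and 36 miRNAs. VTRNA1-1 and RNA5S9 were called in all 6 fits without 1 Full or Empty array, RNY4 in 2 and RNU6ATAC in 1. The genes were chosen after their values were seen.

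NCKAP1, part of the WAVE complex that drives actin branching, was lower with Full by test against Empty (-0.54, adjusted p = 0.0357 in limma), ECD (-0.83, adjusted p = 0.000739) and ICD (-0.73, adjusted p = 0.00479). GPSM2, a spindle orientation protein, gave -0.53, -0.60 and -0.52, RABEP1, an effector of endosome fusion, -0.48, -0.64 and -0.51, and DPY19L1 -0.38, -0.59 and -0.56. None of these 4 was called in the fit on Full and Empty alone, with an adjusted p of 0.155 for NCKAP1, 0.0872 for GPSM2, 0.133 for RABEP1 and 0.191 for DPY19L1. Of the 6 fits without 1 Full or Empty array, 1 called NCKAP1, 3 called GPSM2, 2 called RABEP1 and 0 called DPY19L1. The 3 comparisons share the Full arrays, and these genes were picked for this pattern after their values were seen.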
